A study of Mus musculus with 6 samples.

Results

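A list of 10 genes, whose products take carbon from citrate to finished acyl chains, was followed in lymphatic endothelial cells of mouse melanoma: *Acly*, *Acaca*, *Fasn*, *Scd1*, *Scd2*, *Fads1*, *Fads2*, *Elovl1*, *Elovl5* and *Elovl6*. The members are given by symbol, not by their values, and all 10 are among the 13454 genes of the deposited table. The list holds enzymes that make, desaturate and elongate fatty acids, and no enzyme that assembles phospholipids, so phospholipid synthesis is described from a separate list.

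The cells came from tumours of the melanoma line B16-OVA-VEGFC, whose name gives ovalbumin and the lymphatic growth factor VEGFC, grown in mice. In 3 libraries the host lacked *Ch25h* in its lymphatic endothelium (labelled LEC-Ch25h KO), and in 3 it was a littermate labelled LEC-CH25h WT (WT). The groups are called knockout, or Ch25h KO, and WT below, and 3 values of a group are given in the order of libraries 1, 2 and 3. Digested tumours were sorted for CD31 and GP38, and CD45-bearing cells were left out. The Cre line, the age of the mice, whether animals were pooled and whether libraries came from separate animals are details not given in these sources, so p-values here reflect library-to-library spread, possibly technical.

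Fatty acid synthesis starts in the cytosol, where citrate is split to acetyl-CoA, part of it is carboxylated to malonyl-CoA, and fatty acid synthase joins the units to palmitate. Elongases lengthen the chain and desaturases place double bonds, which sets how fluid the membranes built from these chains are. Many of these genes are targets of the transcription factor SREBP1 and of the oxysterol receptors LXR. 25-Hydroxycholesterol, the product of the enzyme that *Ch25h* encodes, is known to hold back SREBP processing and to bind LXR.

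All 13454 genes of the table together took between 36556824 and 46165273 reads per library. *Ch25h* measured 82.9, 88.8 and 106 CPM in the WT libraries, against 0, 0.0232 and 2.95 CPM in the knockouts. It was the single gene of 11980 that passed limma over all genes (0.00835%; Benjamini-Hochberg adjusted p under 0.05). WT library 3 and knockout library 3 stood at opposite ends of the first principal component, at -34.7 and 31.8, so results below are also given without both where that matters. The lymphatic markers summed to between 7942 and 9903 CPM in WT and between 7061 and 9614 CPM in Ch25h KO (9 of 10 listed markers, none at 0). Of these 9, 3 had a higher and 6 a lower mean in the knockouts, with a median log2 fold change of -0.14, and none passed; *Reln* (-0.32) was the 1 without overlap. In bulk libraries, fewer cells of a type and less RNA per cell cannot be told apart.

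None of the fatty acid genes passed the test in either direction. Of the 10, 6 had a higher and 4 a lower mean on the log2 scale in Ch25h KO, beside 49.6% of all tested genes with a higher mean. Their median log2 fold change was 0.06, beside -0.0021 over all tested genes (log2 of CPM + 1, Ch25h KO minus WT). Without library 3 of both genotypes, a choice made once the data were seen, 3 had a higher and 7 a lower mean and the median was -0.02. The genes furthest above 0 were the elongase *Elovl6* at 0.55, the desaturase *Scd1* at 0.51 and the elongase *Elovl1* at 0.25. *Scd2*, the more abundant relative of *Scd1*, had the lowest value, -0.21.

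**Figure D1:**
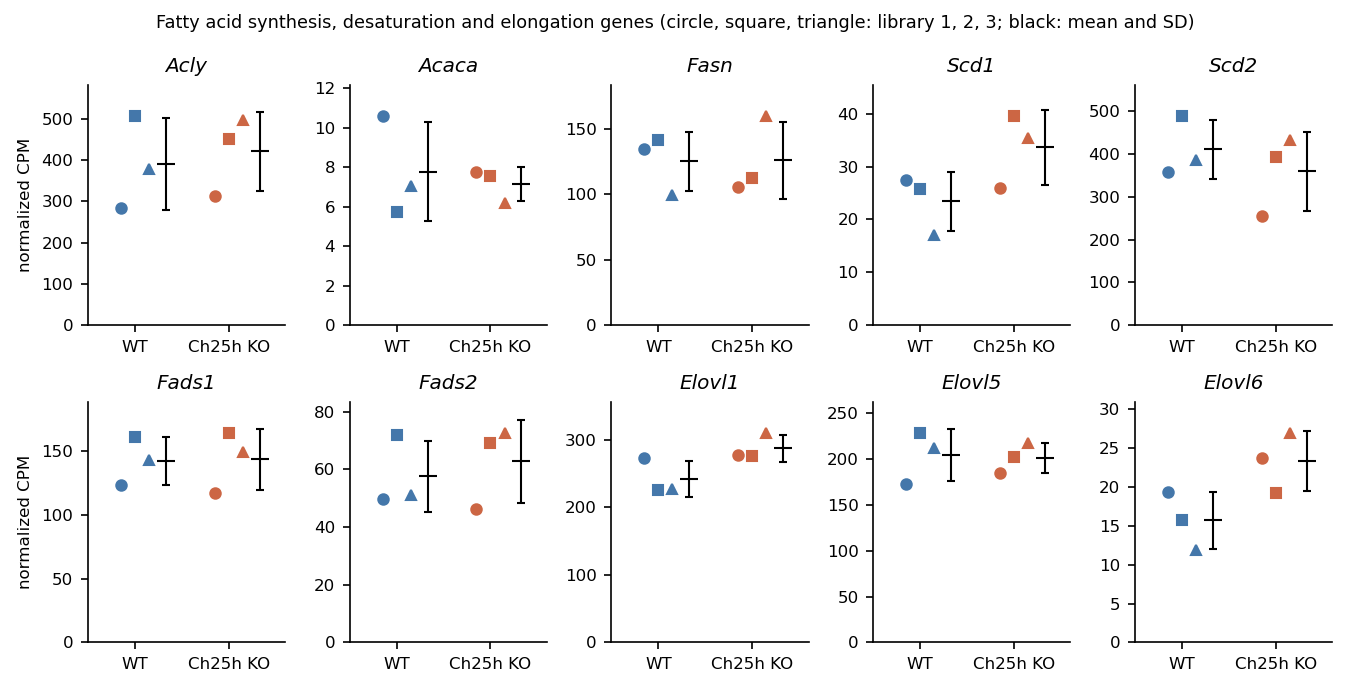
Normalized CPM (vertical axes, each from 0) of the 10 genes in WT (blue) and Ch25h KO (orange) libraries; circles, squares and triangles are libraries 1, 2 and 3, and black marks the mean with SD. The groups are apart in *Elovl1*, where WT reaches 272 CPM and Ch25h KO starts at 275 CPM, and overlap in the other 9 genes.

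*Acly* encodes ATP citrate lyase, which makes cytosolic acetyl-CoA. The WT libraries gave 285, 506 and 377 CPM and the knockouts 314, 451 and 498 CPM. The lowest value of each genotype was library 1, and the groups overlapped across nearly their whole range. Means were 389 ± 111 CPM for WT and 421 ± 95.8 CPM for the knockouts (SD, n = 3), with a log2 fold change of 0.12 with an SE of 0.24 (limma, adjusted p = 0.981).

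*Acaca* encodes acetyl-CoA carboxylase, which makes malonyl-CoA. It was the least abundant of the 10, with 10.6, 5.72 and 7.02 CPM in the WT libraries, against 7.78, 7.54 and 6.18 CPM in the knockouts. WT library 1 was the highest, and the knockout values lay inside the WT range. The log2 fold change was -0.07 with an SE of 0.26 (limma, adjusted p = 0.989), and the values rest on 240 to 484 reads per library. Of the 10211 stretches of 50 bases in its coding transcripts, 49.1% also occur in the processed pseudogene *Gm5182* on chromosome 12 (10152142 to 10158233, mm10). How the counting treated reads that fit both places is not stated, and *Gm5182* is not analysed here, so the level of *Acaca* is uncertain.

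*Fasn*, fatty acid synthase itself, had the same mean in both genotypes to within the spread. WT values were 135, 141 and 99.5 CPM and knockout values 105, 113 and 159.7 CPM. The lowest value, in WT library 3, and the highest, in knockout library 3, belonged to the pair of libraries at the ends of the first principal component. Means were 125 ± 22.5 and 126 ± 29.6 CPM (SD, n = 3). The 95% interval of the log2 fold change ran from -0.44 to 0.44. Without library 3 of both genotypes the log2 fold change was -0.34.

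The windows around the start sites of *Fasn* and *Elovl1* are shown because *Fasn* is the central enzyme of the pathway and *Elovl1* is the member whose groups did not overlap. Both are 300 bases, from 250 before to 50 after the start, from RefSeq on GRCm38.p6 (mm10), written 5′ to 3′ on the gene's strand, with matches to CCAAT on either strand in capitals. *Fasn* lies on the minus strand at chr11:120824498-120824797 and *Elovl1*, at the first of its 2 listed starts, on the plus strand at chr4:118427843-118428142.
Fasn: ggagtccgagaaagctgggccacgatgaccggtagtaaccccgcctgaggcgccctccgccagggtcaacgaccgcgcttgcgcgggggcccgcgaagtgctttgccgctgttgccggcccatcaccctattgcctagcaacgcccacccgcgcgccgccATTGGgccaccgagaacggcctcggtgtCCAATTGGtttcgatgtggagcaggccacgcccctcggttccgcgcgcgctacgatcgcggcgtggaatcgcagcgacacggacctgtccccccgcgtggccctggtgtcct
Elovl1: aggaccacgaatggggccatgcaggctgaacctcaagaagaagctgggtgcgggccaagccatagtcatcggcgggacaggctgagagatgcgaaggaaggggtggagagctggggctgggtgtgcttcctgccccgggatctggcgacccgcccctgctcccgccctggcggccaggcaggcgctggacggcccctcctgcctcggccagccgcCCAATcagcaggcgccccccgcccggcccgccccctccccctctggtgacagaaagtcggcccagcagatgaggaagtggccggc
The table held windows for 7 of the 10 genes; *Scd1*, *Scd2* and *Fads1* had none. CCAAT occurred in the windows of *Acly*, *Elovl1*, *Elovl5* and *Fasn*, and in 37.4% of all 32851 windows. In *Fasn* it overlapped a match to CANNTG, which 72.3% of all windows hold, and in *Elovl1* a match to GGGCGG, which 35.7% hold. The sterol regulatory element, searched as TCACNCCAC on both strands, was in none of these 7 genes' windows and in 1.24% of all windows. The LXR element, a spaced direct repeat, was in none of the 7 and in 0.0152% of all windows. At such low shares, 0 of 7 is near the background and does not show that these genes lack such sites. The *Acaca* window, chr11:84195188-84195487, lies inside the gene, which starts at 84129672 in GENCODE.

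The desaturases *Scd1* and *Scd2* encode enzymes that place the first double bond, making oleate from stearate. *Scd1* measured 27.5, 25.8 and 17.1 CPM in the WT libraries, against 25.9, 39.6 and 35.4 CPM in the knockouts. Knockout library 1 lay inside the WT range, and the other knockout libraries above it. Means were 23.4 ± 5.57 and 33.6 ± 7.03 CPM (SD, n = 3), with a log2 fold change of 0.51 with an SE of 0.23 (limma, adjusted p = 0.924; 95% interval -0.01 to 1.03). Without WT library 3 the log2 fold change was 0.30, and without library 3 of both genotypes it was 0.26. *Scd2* measured 357, 489 and 386 CPM in the WT libraries, against 255, 392 and 432 CPM in the knockouts. Knockout library 1 was the lowest of the 6, the other knockout libraries lay inside the WT range, and the log2 fold change was -0.21 with an SE of 0.21 (limma, adjusted p = 0.973). Without knockout library 1 it was 0.02, and without library 3 of both genotypes -0.40.

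The balance between these isoforms did not overlap between the genotypes. *Scd1* made up 7.14%, 5.01% and 4.24% of the summed CPM of both genes in the WT libraries, and 9.19%, 9.18% and 7.58% in the knockouts. Every knockout library lay above every WT library, by a narrow margin between knockout library 3 and WT library 1. The log2 ratio of *Scd1* to *Scd2* was -4.15 ± 0.41 in WT and -3.41 ± 0.17 in the knockouts (SD, n = 3), a difference of 0.74. A two-sided exact permutation test gave p = 0.1, the smallest that 3 libraries against 3 allow, and 0.2 after Benjamini-Hochberg adjustment over the 2 ratios examined, so the difference does not pass. Leaving out single libraries gave differences from 0.57 to 0.96. The ratio does not depend on library scaling. Of their 50-base stretches, 2.995% of those of *Scd1* occur in *Scd2* and 2.68% of those of *Scd2* in *Scd1*, so a small part of their reads could be assigned to either.

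**Figure D2:**
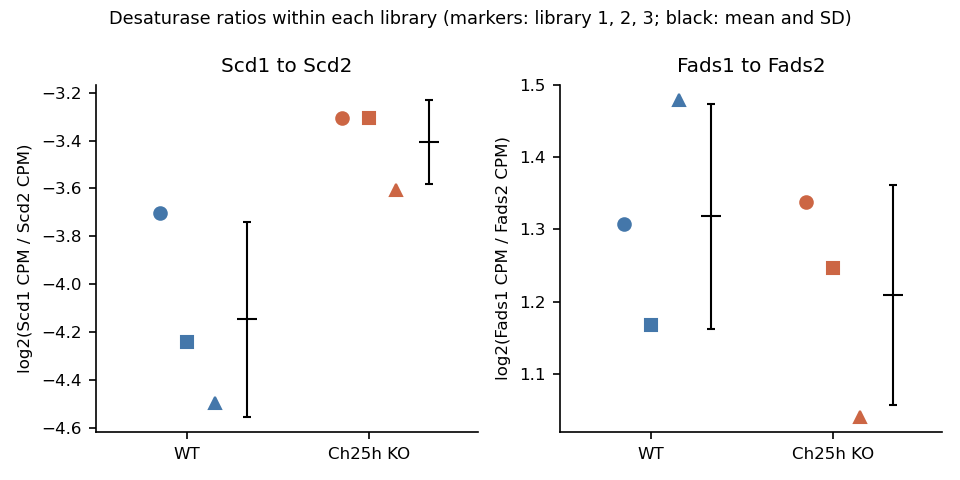
Log2 ratio of CPM within each library for *Scd1* to *Scd2* (left) and *Fads1* to *Fads2* (right), WT in blue and Ch25h KO in orange; circles, squares and triangles are libraries 1, 2 and 3, and black marks the mean with SD. The *Scd1* to *Scd2* values are apart between genotypes (means -4.15 and -3.41), and the *Fads1* to *Fads2* values overlap (means 1.32 and 1.21).

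*Fads1* and *Fads2* encode the desaturases that turn dietary linoleic and linolenic acid into arachidonic acid and its relatives. *Fads1* measured 123, 161 and 143 CPM in the WT libraries, against 117, 164 and 149 CPM in the knockouts. *Fads2* stood at 49.8, 71.7 and 51.2 CPM in WT and at 46.4, 69.2 and 72.5 CPM in Ch25h KO. Both were lowest in library 1 of each genotype and overlapped widely. Log2 fold changes with their SE were 0.0067 ± 0.17 for *Fads1* and 0.11 ± 0.21 for *Fads2* (limma, adjusted p = 1.00 and 0.981). Their log2 ratio averaged 1.32 ± 0.16 in WT and 1.21 ± 0.15 in the knockouts (SD, n = 3; two-sided exact permutation p = 0.5, also 0.5 after adjustment). *Fads3*, the third gene of this family and no member of the list, measured 74.7, 65.4 and 50.4 CPM in the WT libraries, against 82.8, 85.4 and 136 CPM in the knockouts. Its groups did not overlap, but it did not pass (log2 fold change 0.64; limma, adjusted p = 0.836).

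*Elovl6* encodes the elongase that turns palmitate into stearate, the substrate of the *Scd* enzymes. Its values were 19.3, 15.8 and 11.9 CPM in WT and, among knockouts, 23.8, 19.2 and 26.9 CPM. The groups overlapped narrowly, since knockout library 2 lay just below WT library 1. Means were 15.7 ± 3.70 and 23.3 ± 3.86 CPM (SD, n = 3), 1.49 times as high in Ch25h KO, with a log2 fold change of 0.55 with an SE of 0.22 (limma, unadjusted p = 0.034, adjusted p = 0.883). It was the single member at an unadjusted p under 0.05, beside 5.41% of all tested genes, so 1 of 10 is near the background. Without library 3 of both genotypes the log2 fold change was 0.28.

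*Elovl1* encodes an elongase of saturated very long chains that feed sphingolipids. It measured 272, 225 and 227 CPM in the WT libraries, against 277, 275 and 310.0 CPM in the knockouts. All knockout values lay above all WT values, with knockout library 2 only just above WT library 1. This was the 1 member of 10 without overlap, beside 10.2% of all tested genes, and so at the background. Means were 242 ± 26.8 and 287 ± 19.5 CPM (SD, n = 3), with a log2 fold change of 0.25 with an SE of 0.14 (limma, adjusted p = 0.941), and of 0.16 without library 3 of both genotypes. Of its exon length, 2.73% overlaps *Cdc20* on the other strand, and the library kit does not mark strand. *Elovl5*, which elongates polyunsaturated chains, measured 173, 228 and 211 CPM in the WT libraries, against 184, 202 and 217 CPM in the knockouts. The groups overlapped, and the log2 fold change was -0.01 with an SE of 0.15 (limma, adjusted p = 0.999).

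**Figure D3:**
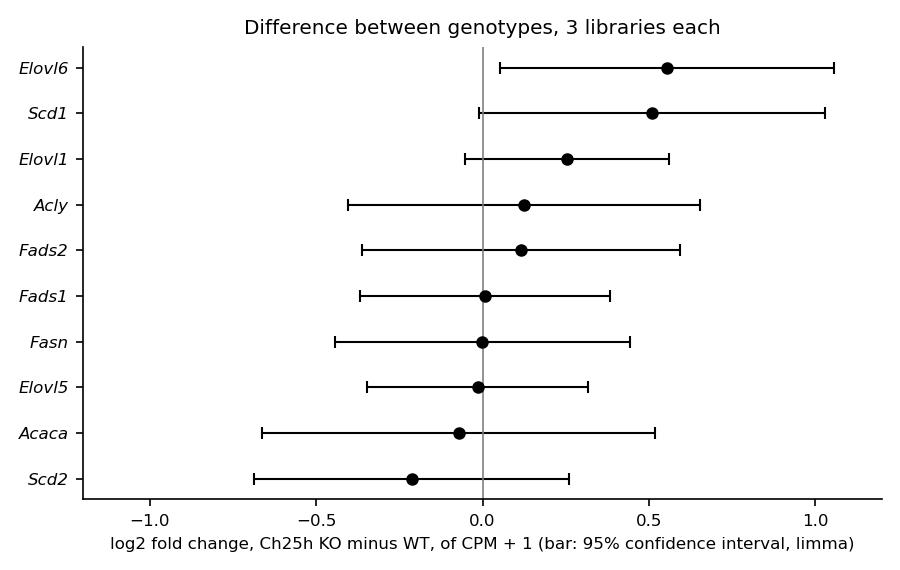
Log2 fold change of CPM + 1, Ch25h KO minus WT (horizontal axis), for each of the 10 genes, with the limma 95% confidence interval for 3 libraries a genotype. *Elovl6* (0.55), *Scd1* (0.51) and *Elovl1* (0.25) lie highest and *Scd2* (-0.21) lowest; the intervals are not adjusted for the number of genes.

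The intervals limit how large a change could have gone unseen. For 8 of the 10 genes the 95% interval excluded a change of 2-fold or more either way, and for *Scd1* and *Elovl6* its upper end lay at 1.03 and 1.06 on the log2 scale. The interval was narrowest for *Elovl1*, from -0.05 to 0.56, and widest for *Acaca*, from -0.66 to 0.52. A gene that did not pass is not thereby shown to be equal in both genotypes.

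Levels per kilobase of coding transcript differed far more among the 10 genes than any of them did between genotypes. The medians over the 6 libraries were 141 CPM per kb for *Elovl1*, 89.8 for *Acly*, 71.3 for *Scd2* and 68.9 for *Elovl5*. They were 40.3 CPM per kb for *Fads1*, 18.9 for *Fads2* and 11.7 for *Fasn*, and 5.45 for *Scd1*, 2.997 for *Elovl6* and 0.719 for *Acaca*. Each gene lay above the next one in 6 of 6 libraries, except *Acly* above *Scd2* and *Scd2* above *Elovl5*, which held in 5 of 6. The order of those 3 neighbours is therefore not settled by these libraries.

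Within a genotype, the ratio of the highest to the lowest library ran from 1.13 to 1.85 over the 10 genes. A group of 5 genes, *Acly*, *Scd2*, *Fads1*, *Fads2* and *Elovl5*, were lowest in library 1 of both genotypes, beside 20.8% of all tested genes. *Scd1*, *Elovl6* and *Fasn* were lowest in WT library 3, at deviations of -0.66, -0.62 and -0.31 from their own mean on the log2 scale. Their order among the knockout libraries differed. The mean deviation of all 10 genes stood at -0.05, 0.07 and -0.20 in the WT libraries, against -0.15, 0.12 and 0.22 in the knockouts.

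**Figure D4:**
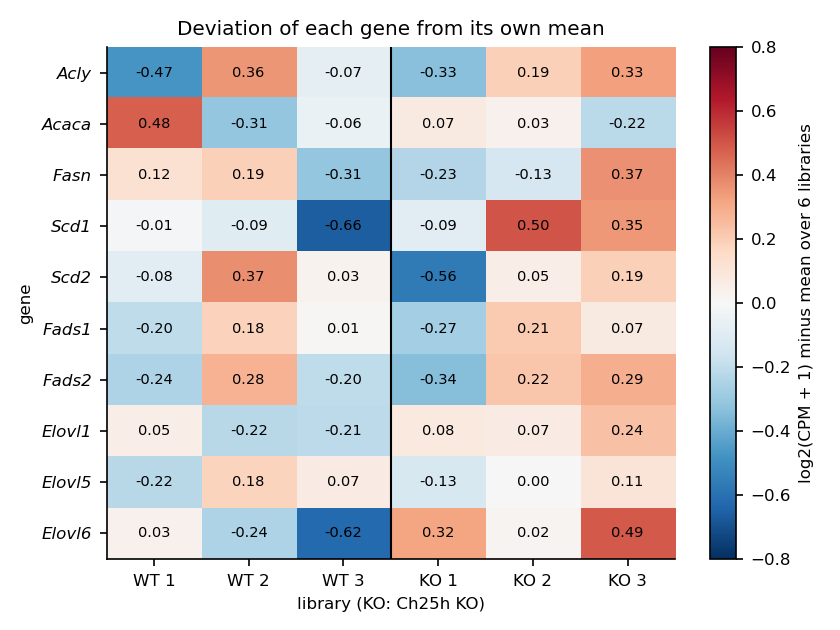
Deviation of log2(CPM + 1) from each gene's mean over the 6 libraries, genes in rows and libraries in columns (KO: Ch25h KO), red above and blue below the mean. *Acly*, *Scd2*, *Fads1*, *Fads2* and *Elovl5* are blue in library 1 of both genotypes, and *Scd1* (-0.66), *Elovl6* (-0.62) and *Fasn* (-0.31) are lowest in WT library 3.

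Markers of other cell types differed between the libraries, and their means also differed between the genotypes. Of 8 melanoma markers, 7 were higher and 1 lower in the knockouts, with a median log2 fold change of 0.68. Of 8 leukocyte markers tested, 2 were higher and 6 lower (median -0.82), and of 6 fibroblast markers 2 and 4 (-0.67). The 2 mural markers tested were lower (-0.24). None of these passed limma over all genes, and all overlapped between genotypes. The 8 melanoma markers, all present, summed to 204, 66.0 and 42.5 CPM in the WT libraries, against 257, 158 and 105 CPM in the knockouts, none of them at 0. By this sum, WT library 3 was the lowest of all and knockout library 3 the lowest of its genotype. *Scd1*, *Fasn* and *Elovl6* were lowest of all in WT library 3. *Fasn*, *Fads2*, *Elovl1* and *Elovl6* were highest of all in knockout library 3. The leukocyte markers, 8 of 12 listed, summed to 25.0 to 310.3 CPM in WT and 34.0 to 131 CPM in Ch25h KO, with *Ptprc* at 0 in WT library 2 and knockout library 1, *Emr1* at 0 in WT library 2 and *Csf1r* at 0 in knockout library 1. The fibroblast markers, 8 of 9, summed to 173 to 594 and 271 to 359.9 CPM, with *Fap* at 0 in WT library 2 and *Pdgfrb* at 0 in knockout library 3. The mural markers, 3 of 7, summed to 12.1 to 17.6 and 9.93 to 12.3 CPM, with *Des* at 0 in WT library 2 and knockout library 3. None of the 10 adipocyte markers is among the genes analysed here. The part of these cells in the values of the fatty acid genes was not tested.

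The regulators of the pathway did not pass either. Of 19 genes tested in the list of SREBP, LXR, ChREBP and AMPK control, 6 had a higher and 13 a lower mean in Ch25h KO, with a median log2 fold change of -0.05 and 0 called by limma over all genes (1 at an unadjusted p under 0.05). *Srebf1*, which encodes SREBP1, had means of 116 ± 2.92 CPM in WT and 115 ± 18.8 CPM in the knockouts, and *Srebf2* averaged 255 ± 16.4 and 274 ± 66.7 CPM (SD, n = 3). The LXR genes *Nr1h2* and *Nr1h3* had log2 fold changes of -0.03 and -0.34. *Rxra*, the partner receptor of LXR, had the smallest p of the list. WT values were 32.5, 33.9 and 37.1 CPM and knockout values 26.5, 20.9 and 22.8 CPM, without overlap (log2 fold change -0.55; limma, adjusted p = 0.836). *Mid1ip1*, whose product stimulates acetyl-CoA carboxylase, had a log2 fold change of 0.34 without overlap, and the AMPK subunit gene *Prkab2* one of -0.31.

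Genes that supply or extend the pathway had more higher than lower means, and none was called. Of 14 genes of acetyl-CoA, malonyl-CoA and NADPH supply, 11 were higher and 3 lower (median log2 fold change 0.09), and without library 3 of both genotypes 8 and 6. *Acacb*, the mitochondrial form of acetyl-CoA carboxylase, had means of 4.94 ± 1.27 CPM in WT and 3.09 ± 0.611 CPM in the knockouts (SD, n = 3; log2 fold change -0.53; limma, adjusted p = 0.941). *Pdhb* of pyruvate dehydrogenase and the acetate-activating *Acss2* had log2 fold changes of 0.24 and 0.44. A list of other elongation and desaturation genes also held thioesterase genes and genes of mitochondrial fatty acid synthesis. Of its 13 genes tested, 10 were higher and 3 lower (median 0.18). Those of smallest p were *Fads3*, the thioesterase gene *Acot7* (0.54) and the mitochondrial transacylase gene *Mcat* (0.38). Of 11 genes of acyl-CoA activation, 7 were higher and 4 lower (median 0.04), against 5 and 6 without library 3 of both genotypes. Those of smallest p were the acyl-CoA synthetases *Acsl1* (-0.48, without overlap), *Acsl6* (-0.66) and *Acsl3* (0.24). *Acsl6* was low and overlapped, with 3.28, 2.79 and 4.13 CPM in WT and 3.62, 1.74 and 0.68 CPM in the knockouts.

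Phospholipid synthesis showed no common direction. Of 32 tested genes that build phosphatidic acid and phospholipids, 15 were higher and 17 lower in Ch25h KO, the median log2 fold change was -0.02 and 0 were called by limma (1 at an unadjusted p under 0.05). *Lpin1*, a phosphatidate phosphatase that also coactivates transcription, had the smallest p. Its values were 20.4, 27.2 and 29.6 CPM in WT and, among knockouts, 17.3, 20.2 and 15.8 CPM, so that the groups narrowly did not overlap (log2 fold change -0.50; limma, adjusted p = 0.883). The acyltransferase gene *Gpat3*, listed as *Agpat9*, had a log2 fold change of 0.51 and *Pcyt2*, of phosphatidylethanolamine synthesis, one of 0.22. *Gpat3* was low and overlapped, with 2.54, 3.39 and 2.61 CPM in WT and 4.13, 2.65 and 7.74 CPM in the knockouts. Of 12 genes that exchange acyl chains of phospholipids, 9 were higher and 3 lower (median 0.08). Among them *Lpcat4* averaged 74.3 ± 8.89 and 98.6 ± 16.0 CPM in WT and Ch25h KO, and *Lpgat1* averaged 56.9 ± 7.07 and 70.7 ± 4.49 CPM (SD, n = 3), both without overlap and neither past the test (limma, adjusted p = 0.892 and 0.941). The phospholipase gene *Pla2g15* had a log2 fold change of -0.30.

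For storage and for sterols the counts differed in direction. Of 14 genes of triglyceride synthesis and lipid droplets, 7 were higher and 7 lower (median 0.006), and the lipase gene *Pnpla2* had means of 102 ± 8.51 CPM in WT and 79.6 ± 12.6 CPM in the knockouts (SD, n = 3; limma, adjusted p = 0.913). *Lipe*, another lipase, and *Abhd5*, which activates the *Pnpla2* lipase, had log2 fold changes of -0.45 and 0.20. Of 22 tested cholesterol synthesis genes, 19 were higher and 3 lower, with a median of 0.28 beside 0.06 for the fatty acid genes, 0 called and 2 at an unadjusted p under 0.05. Those of smallest p were *Sqle* (squalene epoxidase, log2 fold change 0.55), *Fdps* (0.44) and *Mvd* (0.35), which encode enzymes on the way from mevalonate to sterols. The mean deviation of the cholesterol genes was -0.05, 0.04 and -0.35 in the WT libraries, against -0.07, 0.02 and 0.41 in the knockouts. WT library 3 was thus far below and knockout library 3 far above the rest, while libraries 1 and 2 of the genotypes overlapped. Without library 3 of both genotypes, 11 of these genes were higher and 11 lower, with a median of 0.0010. The fatty acid genes also had their lowest mean deviation in WT library 3 (-0.20) and their highest in knockout library 3 (0.22). Genes without overlap numbered 3 of 19 for control, 2 of 14 for supply, 2 of 13 for other elongation and 1 of 11 for activation. They numbered 1 of 32 for phospholipid synthesis, 3 of 12 for acyl exchange, 1 of 14 for triglycerides and 2 of 22 for cholesterol. The share over all tested genes was 10.2%. Among the genes named, *Acacb*, *Pdhb*, *Mcat*, *Pla2g15*, *Pnpla2* and *Mvd* were also without overlap. Whether the lists differ was not tested.

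**Figure D5:**
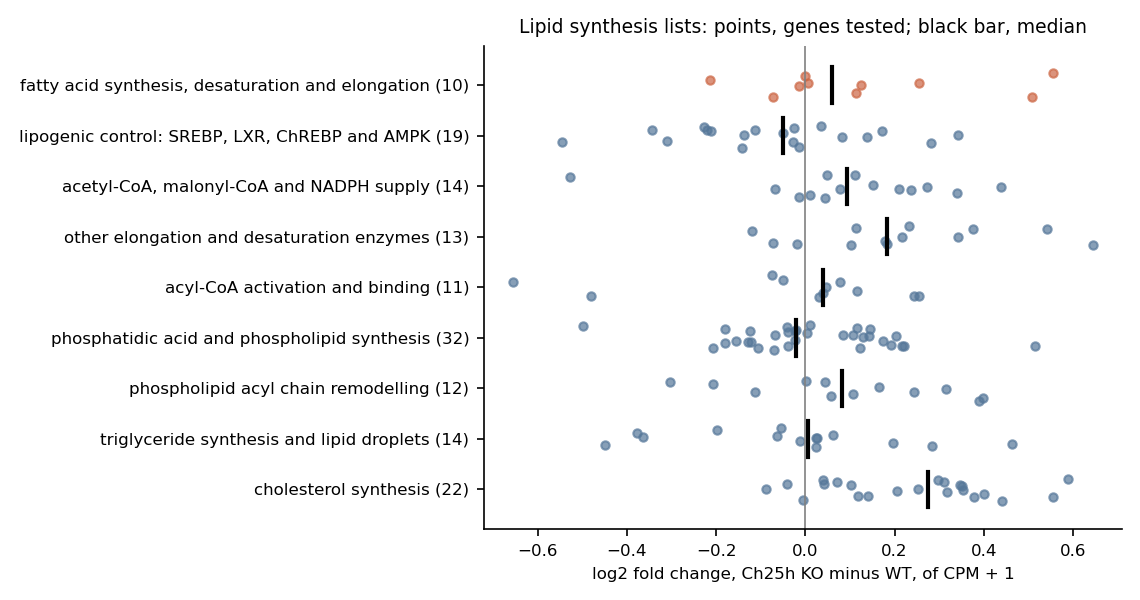
Log2 fold change of CPM + 1, Ch25h KO minus WT (horizontal axis), of each tested gene in 9 lists (rows, with the number of genes tested); the top row is the 10 fatty acid genes and black bars are medians. Medians run from -0.05 for lipogenic control to 0.28 for cholesterol synthesis, with 0.06 for the fatty acid genes.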

How the data were processed

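RNA-seq of sorted lymphatic endothelial cells was deposited by the authors as a normalized signal on the CPM scale, 1 column per library, for 13454 genes by symbol. Per the labels' protocols, reverse transcription used SMART-Seq v4, a kit that does not mark strand. STAR 2.7.0, HTSeq 0.9.1, edgeR 3.26.8 and build mm10 are named, without roles, per the submitters' processing notes. The annotation, strand setting and gene filter are details not given in these sources.

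Each value was a whole multiple of its column's smallest value above 0 (100% within 0.01), taken as 1 read. TMM factors computed from the recovered reads, 0.967 to 1.02, equalled those implied by the columns. A read was worth 0.0216 to 0.0268 CPM. Intervals and limits from reads would cover counting error only, as reads carry no molecular identifiers.

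Genotype labels set the groups, and titles the library numbers. limma was run on log2(CPM + 1), group as the only term, variance prior with trend, over the 11980 genes averaging 1 CPM or more, Benjamini-Hochberg adjusted at 0.05 over all of them. Fold changes are on that scale, which understates low genes. The 2 desaturase ratios used two-sided exact permutation tests. The members and gene lists were chosen with earlier results of these data known. Named are all 10 members and, of each context and marker list, the up to 3 genes of smallest p, plus *Srebf1*, *Srebf2*, *Nr1h2* and *Nr1h3*; *Fads3*'s values in each library and the marker genes at 0 are given because of those values. Among the marker lists these genes were *Reln*, *Flt4* and *Pdpn* (log2 fold changes -0.32, -0.35 and -0.21), *C1qb*, *Csf1r* and *C1qa* (-1.18, -1.15 and -0.96), *Dcn*, *Col1a1* and *Col1a2* (0.41, -1.21 and -0.95), *Tyrp1*, *Slc45a2* and *Dct* (0.99, 0.78 and 0.93), and *Acta2* and *Tagln* (-0.38 and -0.10); none passed. Older symbols were resolved through RefSeq synonyms. Lengths and 50-base stretches are from coding transcripts of GENCODE M21 (mm10). Tools were R 4.3.3, limma 3.58.1, edgeR 4.0.16, DESeq2 1.42.0 and Python 3.11.15. The limma script was tested on simulated data. Alternatives tried were changed pseudocounts, filters, scalings, priors and weights, a replicate block, edgeR and DESeq2 on recovered reads, and leaving out libraries.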

Additional observations from a re-analysis of the deposited data

How the results depend on the processing

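No fatty acid gene was called under any of 18 alternatives, and the smallest adjusted p of a member was 0.157, for *Scd1* with library weights. *Scd1*, *Elovl1* and *Elovl6* kept a higher mean in Ch25h KO in all 18, with log2 fold changes of 0.26 to 0.84, 0.16 to 0.34 and 0.28 to 0.71. The median of the 10 genes ran from -0.02 to 0.21, and moved by less than the spread between libraries throughout. The sign changed in 24 of 180 gene and setting combinations, in genes with main log2 fold changes from -0.21 (*Scd2*) to 0.12 (*Acly*). *Fasn* was at 0.13 with library weights, 0.0073 in edgeR and 0.015 in DESeq2, *Acaca* at 0.044 with library weights, and *Fads1* at -0.0035 with quantile normalization. Leaving out library 3 of both genotypes, chosen after seeing the data, gave -0.013 for *Acly*, -0.022 for *Fads1*, -0.075 for *Fads2* and 0.055 for the *Fads1* to *Fads2* ratio. Leaving out single libraries gave -0.081 to 0.33 for *Acly*, -0.25 to 0.15 for *Acaca*, -0.18 to 0.12 for *Fasn*, -0.36 to 0.015 for *Scd2*, -0.10 to 0.14 for *Fads1*, -0.0024 to 0.31 for *Fads2* and -0.13 to 0.069 for *Elovl5*. The cause of these changes of sign was not tested. Over all genes the number called was 0 with a pseudocount of 0.25, 0 in edgeR and 11 in DESeq2, and 0 to 2 without single libraries. Where 0 genes were called, *Ch25h* itself did not pass, so the lack of a called member there carries little weight. Members without overlap numbered 2 on plain CPM, 2 without library 3 of both genotypes and 1 to 3 without single libraries, beside 9.98%, 23.8% and 14.0% to 32.1% of all tested genes, where fewer libraries overlap less often. Same-numbered libraries correlated at 0.24, -0.06 and -0.10 in their deviations from the group means. WT library 3 correlated best with knockout library 2, at 0.27. With 3 libraries a genotype, these values do not settle whether the numbers mark pairs or batches. With the replicate block 1 gene and 0 members were called and the median was 0.06. The sign-flip test of the paired *Scd1* to *Scd2* ratio gave an exact p = 0.25, the smallest that 3 pairs allow. With 3 libraries a genotype, an increase of about 2-fold in *Scd1* or *Elovl6* lies within their 95% intervals.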

Other observations

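Outside all lists, 5 of 11800 tested genes had the profile over the 6 libraries most like the mean deviation of the fatty acid genes, measured by Pearson's r of log2(CPM + 1). They were *Fgd1* (r = 0.997), the proteasome gene *Psmd1* (0.989), *2510039O18Rik* (0.987), *Qsox2*, which encodes a sulfhydryl oxidase (0.984), and *Slc41a2* (0.983). *Psmd1* measured 337, 374 and 319 CPM in the WT libraries, against 331, 381 and 411 CPM in the knockouts. The r values are descriptions over 6 libraries, and all genes of a library share its depth and composition. They were chosen as the highest of many and carry no test.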
